A study of Mus musculus with 5 samples.

Results

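The genes described here encode the heterogeneous nuclear ribonucleoproteins (hnRNP), the protein parts of the small nuclear ribonucleoproteins (snRNP) and the SF3a and SF3b splicing factors, as measured by SLAMseq in cultured mouse cardiac fibroblasts (CF). They were chosen by name from the interval tables, as every symbol that starts with Hnrnp, Snrp, Snrnp, Sf3a or Sf3b, which gave 49 of 20365 gene names. Of these, 21 are hnRNP genes and 28 are genes of the core spliceosome. The 49 names held 104 distinct intervals, and 1 interval stood for each gene, the one whose CPM averaged highest over the labeled libraries. The CF came from healthy adult C57Bl/6J wildtype mice, all male, and were grown to confluency after collagenase perfusion of the heart. In 3 libraries the cells had received 0.1 mM 4-thiouridine (S4U) for 12 h (labeled), and in 2 libraries they were kept in parallel without S4U (unlabeled). S4U enters RNA in place of uridine, and after alkylation it is read as C, so the T>C conversion rate, the fraction of covered T positions read as C, rises with the share of a transcript made during labeling. The study's reporting summary gives 3 CF preparations for SLAMseq. The sources used here do not tie single libraries to preparations, and p-values measure the spread between these libraries.

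HnRNP proteins coat nascent transcripts and influence which exons are kept, how RNA leaves the nucleus and how long it lasts. The core spliceosome carries out splicing itself: the Sm proteins form a ring on the U1, U2, U4 and U5 small nuclear RNAs, the U1 proteins recognise the 5′ splice site, the U2 proteins with SF3a and SF3b hold the branch point, and the U5 and tri-snRNP proteins drive the rearrangements that activate the complex. Snrnp25, Snrnp35 and Snrnp48 belong to the U11/U12 particle of the minor spliceosome. Both groups are expressed in nearly every cell type, and fibroblasts are no exception.

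The libraries are 3′ end libraries, so what was sequenced is the last stretch of each transcript. In the annotation of GRCm39, the chosen interval lay in the UTR and the last exon of its own gene for 48 of the 49 names. The exception was Hnrnpa1l2-ps2, a pseudogene name whose interval of 48 bases had no exon of that name beneath it and lay opposite Cdh18. Intervals ranged from 48 to 6270 bases. Those of 12 members overlap a gene on the opposite strand, among them Hnrnpab with Phykpl, Hnrnpa2b1 with Nfe2l3 and Hnrnpu with Cox20, and those of Hnrnpul2 and Snrpn overlap a gene on their own strand. Whether the counting used strand is not given in the sources used here. The poly(A) signal AATAAA was searched on the transcript strand in the last 60 bases of each interval, and 32 of 49 members held it, against 67.3% of the 13794 genes examined. The windows below lie near the ends of the intervals over which reads were counted. They are shown for the hnRNP genes whose T>C rate is later called above the library median (Hnrnpab, Hnrnpa2b1 and Hnrnpm). A pair of paralogs whose intervals end almost alike (Hnrnph1 and Hnrnph2) is shown beside them. Capitals mark AATAAA, and coordinates are on mm39.

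Hnrnpab, minus strand, chr11:51490930-51490959: gtagttttcttaAATAAAttgagggagacc

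Hnrnpa2b1, minus strand, chr6:51438105-51438134: caagttttataaAATAAAtacttttgtatc

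Hnrnpm, minus strand, chr17:33865213-33865242: tatgactttgatAATAAAtaccagttcctg

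Hnrnph1, plus strand, chr11:50277320-50277349: tgaaccttgtcaAATAAAtcttccttttaa

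Hnrnph2, plus strand, chrX:133507768-133507797: tgaaacttgttaAATAAAtcttccttttaa

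The windows of Hnrnph1 and Hnrnph2 were identical at 28 of 30 bases. Among the 12 paralog pairs for which both members had such a window, the others shared 10 to 17 of 30 bases. AATAAA itself adds to these counts, except for the pair with Hnrnpdl, whose window holds it at another place.

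Member intervals were rich in T, the only base at which labeling can be read. Their median T content was 34.1% (quartiles 31.5% and 36.0%), against a median of 29.0% over the 13794 genes. Snrnp70, the U1-specific 70K protein, was the most T-poor member with an annotated gene at 16.1%. The Hnrnpl interval held the most T, at 43.3%.

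On 1 interval per gene, the labeled libraries held 1576048, 1194971 and 506045 reads and the unlabeled libraries 1842863 and 996053. The 49 members took 9474, 6751, 2902, 11318 and 5341 of these reads, which is 0.536% to 0.614% of each library. Labeled replicate 3 had the fewest reads in all. Levels are given as RPM, in which the reads of a gene are divided by the reads counted in that library and scaled as in CPM, because the deposited CPM divides by a number of reads that exceeds the counted reads by 7.58 to 28.9 times. The library-wide T>C rate was 0.0353, 0.0358 and 0.0356 in the labeled and 0.00111 and 0.000652 in the unlabeled libraries, and an exact two-sided permutation test gave p = 0.2, the smallest value that 3 libraries against 2 allow when the one-sided p is doubled. The 7 fibroblast markers summed to between 32650 and 43880 RPM. Macrophage markers summed to 35.8 to 73.6, endothelial markers to 93.9 to 197 and cardiomyocyte markers to 0.634 to 7.03, with Actn2 at 0 in every library. The study's isolation of CF includes a magnetic depletion of CD31+ endothelial and CD45+ immune cells before culture. The part of these other cells in the values below was not tested.

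Conversion was seen in every member that could be measured. Of the 49 genes, 47 had a covered T position in all 5 libraries, and all 47 had a higher T>C rate in the labeled libraries at an unadjusted p below 0.05 (beta-binomial likelihood-ratio test across all intervals). The same call was made for 95.1% of 11179 genes, so the count says only that splicing genes behaved like most transcripts. The p-values ranged from 9.11e-09 for Hnrnpa2b1 to 0.00845 for Snrnp35. In 46 of 47 members the lowest labeled rate was above the highest unlabeled rate, and the exception was Snrnp35, with a rate of 0 in labeled replicate 3. The libraries separated in this way for 90.4% of the 11179 genes. In 14 of the 47 no conversion was read in either unlabeled library, which at 3 conversions allows rates of up to 0.000648 to 0.00865. The highest unlabeled rate of a member was 0.00324, in Snrnp25. The genes without a value were Hnrnph2, with a single read among the labeled libraries, and Hnrnpa1l2-ps2, with none in any library.

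Rates between genes were compared only where at least 300 T positions were covered in each labeled library, which left 37 members, 17 hnRNP and 20 core. Their mean rates lay between 0.0350 and 0.0532 with a median of 0.0409 (quartiles 0.0380 and 0.0447). Over all 5555 genes that met this minimum, the median was 0.0387 (quartiles 0.0346 and 0.0423). The members stood closer together than genes in general, with an SD over genes of 0.00422 against 0.00805. The SD of a single member over the 3 labeled libraries had a median of 0.00417. That SD is of single library values and the SD over genes is of means over 3 libraries, so they are not directly comparable. No member fell below the tenth percentile of all genes (a rate of 0.0283), and 6 were above the ninetieth (0.0458).

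**Figure D1:**
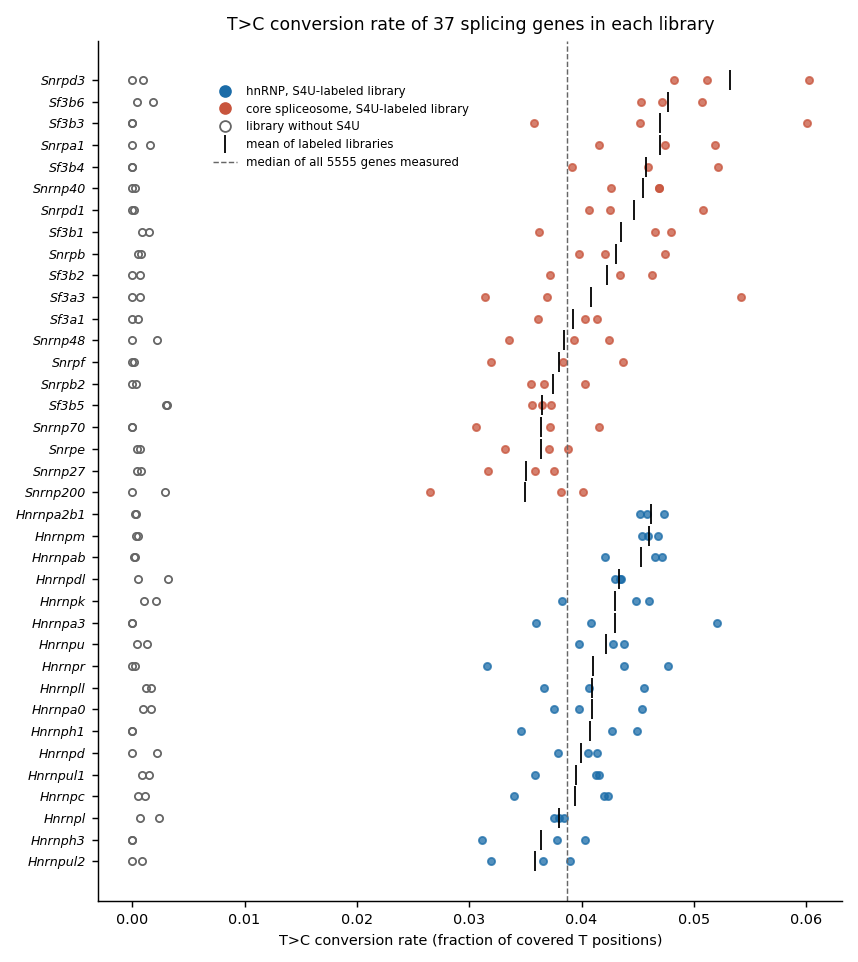
T>C conversion rate (x axis, fraction of covered T positions) of the 37 members with at least 300 covered T positions in each labeled library, hnRNP genes below and core spliceosome genes above, each ordered by mean. Filled points are the 3 labeled libraries, open points the 2 unlabeled libraries, ticks the labeled mean and the dashed line the median of 5555 genes; labeled values run from 0.0265 to 0.0602 and unlabeled values stay at or below 0.00320.

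The hnRNP genes with the most reads were Hnrnpab, Hnrnpa0, Hnrnpu, Hnrnpa2b1 and Hnrnpk. Hnrnpab, an RNA-binding protein of the A/B family, stood at 699, 792 and 838 RPM in labeled replicates 1 to 3 and at 594 and 736 in the unlabeled libraries. Its T>C rate was 0.0421, 0.0472 and 0.0465 in the labeled libraries (mean 0.0453 ± 0.00276, SD, n = 3) against 0.000244 and 0.000127 without S4U. Labeled and unlabeled levels of Hnrnpab overlapped, and its rates did not. Hnrnpa0, a single-exon relative of the A family, gave 737, 503 and 565 RPM with S4U and 704 and 559 without it. Its rates were 0.0397, 0.0454 and 0.0375, with 0.00170 and 0.000988 in the unlabeled libraries. Replicate 1 had the highest Hnrnpa0 level among the labeled libraries and replicate 2 the highest rate, so level and rate did not move together.

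Hnrnpu, a large nuclear protein that binds RNA and chromatin, had 494, 365 and 409 RPM in the labeled and 601 and 399 in the unlabeled libraries. Its rates of 0.0428, 0.0398 and 0.0438 were among the more even ones, with 0.00129 and 0.000410 as background. Hnrnpa2b1, which binds and sorts mRNA and microRNA precursors, gave 461, 373 and 372 RPM with S4U and 479 and 306 without. The T>C rate of Hnrnpa2b1 was 0.0452, 0.0474 and 0.0459 (mean 0.0461 ± 0.00109, SD, n = 3) against 0.000370 and 0.000238, and each labeled value was above every labeled value of Hnrnpu. Hnrnpk, a poly(C)-binding protein, was present at 397, 269 and 255 RPM and at 498 and 307 in the unlabeled libraries. Its rates were 0.0383, 0.0448 and 0.0460 against 0.00211 and 0.00107. For Hnrnpk, replicate 1 had the most reads and the lowest rate.

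Hnrnpl, a regulator of CA-rich exons, gave 180, 174 and 211 RPM and 170 and 125 without S4U. Its rates of 0.0385, 0.0376 and 0.0380 had an SD of 0.000449, and against them stood 0.00234 and 0.000693 in the unlabeled libraries. Hnrnpm, a GU-binding splicing regulator, had 199, 153 and 144 RPM and 194 and 130 in the unlabeled libraries. Its rates of 0.0459, 0.0454 and 0.0468 were also narrow and higher than those of Hnrnpl in every labeled library, over a background of 0.000489 and 0.000300. Hnrnpdl, a relative of the AU-binding protein Hnrnpd, had 152, 183 and 164 RPM against 158 and 190. Its rates were 0.0435, 0.0434 and 0.0430 with an SD of 0.000258, and the unlabeled rates were 0.00320 and 0.000511. The unlabeled rate of Hnrnpdl in replicate 1 was the highest of the 37 members compared. At least 2816, 1924 and 2557 T positions were covered in each labeled library for Hnrnpl, Hnrnpm and Hnrnpdl, and a similar minimum of 2805 for Hnrnpk went with an SD of 0.00417.

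Among the other hnRNP genes with enough depth, mean rates ran from 0.0358 to 0.0430. Hnrnpul2, a relative of Hnrnpu, had the lowest, with 0.0319, 0.0366 and 0.0389 in the labeled libraries and 0.000890 and 0 in the unlabeled ones. Its level was 88.8, 73.6 and 73.1 RPM with S4U and 142 and 76.3 without. Its interval overlaps the gene Gm50139 on the same strand, and whether reads of that gene were counted with it was not tested. Hnrnph3, of the G-tract binding F/H family, followed with 0.0311, 0.0378 and 0.0403, and no conversion without S4U, at 38.7, 36.8 and 39.5 RPM against 57.5 and 39.2. In both genes replicate 1 was lowest and replicate 3 highest, and both ranges reached the median of all genes. Hnrnpc, which binds uridine tracts, had a mean of 0.0394 ± 0.00475, Hnrnpul1 of 0.0395 ± 0.00321, Hnrnpd of 0.040 ± 0.00182 and Hnrnpr of 0.0410 ± 0.00842 (SD, n = 3). Hnrnph1 stood at 0.0407 ± 0.00543, Hnrnpll at 0.0409 ± 0.00444 and Hnrnpa3 at 0.0430 ± 0.00826, so the ranges of these genes overlapped widely. Hnrnpa1 (labeled rates 0.0282, 0.0355 and 0.0511) and Hnrnpf (0.0255, 0.050 and 0.00787) had too few covered positions, as few as 274 and 127 in a library, to be placed in this order.

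Of the core genes, Sf3b1, Snrpd3, Sf3b5, Snrpd1 and Snrpb had the most reads. Sf3b1, the SF3b subunit that clamps the branch helix, gave 224, 167 and 140 RPM with S4U and 263 and 181 without it. The T>C rate of Sf3b1 was 0.0465, 0.0479 and 0.0362 against 0.00148 and 0.000826, with replicate 3 standing below the others. Snrpd3, a protein of the Sm ring, gave 200, 133 and 126 RPM against 182 and 89.4. Its rates of 0.0512, 0.0602 and 0.0483 (mean 0.0532 ± 0.00623, SD, n = 3) were the highest mean of the 37 members and exceeded those of 99.3% of the 5555 genes, with 0.000948 and 0 in the unlabeled libraries. The Snrpd3 interval of 118 bases at chr10:75371157-75371274 lies in its last exon, and at least 1036 T positions were covered in each labeled library. Sf3b5, a small SF3b subunit, had 123, 199 and 182 RPM against 109 and 124. Its rates were 0.0373, 0.0356 and 0.0365, and its unlabeled rates of 0.00300 and 0.00313 were high in both libraries.

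Snrpd1, another Sm protein, had 136, 168 and 142 RPM with S4U and 147 and 109 without. Its rates were 0.0425, 0.0406 and 0.0508 against 0.000126 and 0. Snrpb, which encodes the Sm proteins B and B′, ranged widely in level, with 64.7, 176 and 126 in the labeled and 51.6 and 154 in the unlabeled libraries. In both groups replicate 1 was the lowest for Snrpb, and its T>C rates of 0.0421, 0.0397 and 0.0474 did not follow this order, over 0.000764 and 0.000534 without S4U. Snrpf had 122, 79.5 and 123 RPM against 99.8 and 42.2, and rates of 0.0437, 0.0384 and 0.0319 against 0.000197 and 0. Sf3b6, which contacts the branch point adenosine, had 107, 89.5 and 79.0 RPM against 84.7 and 74.3. Its rates were 0.0472, 0.0453 and 0.0507 against 0.00181 and 0.000465, so all labeled values lay above the median of all genes. Snrpb2, the U2 B″ protein, had 89.5, 89.5 and 113 RPM against 118 and 96.4, and rates of 0.0367, 0.0355 and 0.0403 against 0.000289 and 0.

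The ends of the order of rates were both taken by core genes. After Snrpd3 and Sf3b6 came Sf3b3, with 0.0358, 0.0452 and 0.0601 and no conversion without S4U, and Snrpa1, the U2 A′ protein, with 0.0415, 0.0474 and 0.0519 against 0 and 0.00162. The range of Sf3b3 alone spans most of the members, so its place is uncertain, and its level was 54.6, 91.2 and 115 RPM against 60.8 and 124. At the low end were Snrnp200, the helicase that unwinds U4 from U6, with 0.0401, 0.0382 and 0.0265 against 0.00291 and 0, and Snrnp27, a tri-snRNP protein, with 0.0375, 0.0359 and 0.0316 against 0.000464 and 0.000793. Snrpe, an Sm protein, had 0.0388, 0.0371 and 0.0331 against 0.000678 and 0.000458. In these last genes replicate 3 was the lowest, the reverse of Hnrnpul2 and Hnrnph3. Snrnp200 stood at 112, 63.6 and 88.9 RPM with S4U and 136 and 64.3 without. Snrnp27 had 48.2, 54.4 and 65.2 RPM against 66.2 and 55.2, and Snrpe had 55.2, 85.4 and 63.2 against 68.4 and 95.4. The levels of these genes overlapped between labeled and unlabeled libraries. The lowest labeled rate of Sf3b6 (0.0453) was above the highest of Snrnp200 (0.0401), while Snrpd3 and Sf3b6 overlapped, as did Snrnp200 and Snrnp27. For the single unlabeled libraries at 0 of the genes whose values in every library are given (11 such values), 3 conversions would allow rates of 0.000947 to 0.00291.

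The remaining core genes with enough depth lay between. Mean rates were 0.0364 ± 0.00551 for Snrnp70, 0.0385 ± 0.00455 for Snrnp48 of the U11/U12 particle, 0.0393 ± 0.00275 for Sf3a1, 0.0408 ± 0.0119 for Sf3a3, 0.0423 ± 0.00463 for Sf3b2, 0.0455 ± 0.00249 for Snrnp40 and 0.0457 ± 0.00652 for Sf3b4 (SD, n = 3 each). The Sm, U2 and U5 groups each had members on both sides of the median of all genes. The 8 core genes under the depth minimum were Snrpc, Snrpa, Snrpg, Snrpd2, Snrpn, Sf3a2, Snrnp25 and Snrnp35. Their labeled rates scattered from 0 in replicate 3 for Snrnp35, over 62 covered T positions, to 0.0700 in replicate 2 for Snrpg, over 357.

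Each gene was then set against the median of its library, on the log2 odds of conversion over the labeled libraries (limma across all 5555 genes, Benjamini-Hochberg adjustment over all of them). Of the 37 members, 5 stood above the library median at an adjusted p below 0.05 and 0 below it, whereas 2.74% of all genes were called above and 10.6% below. Snrpd3 was higher by 0.48 ± 0.0979 (SE, adjusted p = 0.0119), Sf3b6 by 0.32 ± 0.0879 (adjusted p = 0.0488) and Hnrnpa2b1 by 0.26 ± 0.0514 (adjusted p = 0.00936). Hnrnpm was higher by 0.26 ± 0.0715 (adjusted p = 0.0462) and Hnrnpab by 0.23 ± 0.0518 (adjusted p = 0.0189). These are small differences, and each was seen in 3 of 3 labeled libraries. The calls did not hold with every library left out, although the differences changed little. Without replicate 2 limma called 0 members, with differences from 0.20 for Hnrnpab (adjusted p = 0.201) to 0.39 for Snrpd3 (adjusted p = 0.116), 0.25 for Hnrnpa2b1 (adjusted p = 0.112), and 25 genes above in all. Without replicate 1, Hnrnpa2b1 and Hnrnpab stayed called, and Snrpd3 stood at 0.49 (adjusted p = 0.0682). Without replicate 3, Hnrnpa2b1, Hnrnpab and Snrpd3 stayed called and Sf3b1 was added. Hnrnpm and Sf3b6 lost their call whichever library was left out, with differences of 0.25 to 0.28 and of 0.28 to 0.36. Without any test, 13 of the 37 members were above the median in all 3 labeled libraries (23.2% of all genes were) and 2 were below it in all 3 (23.9% of all genes).

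**Figure D2:**
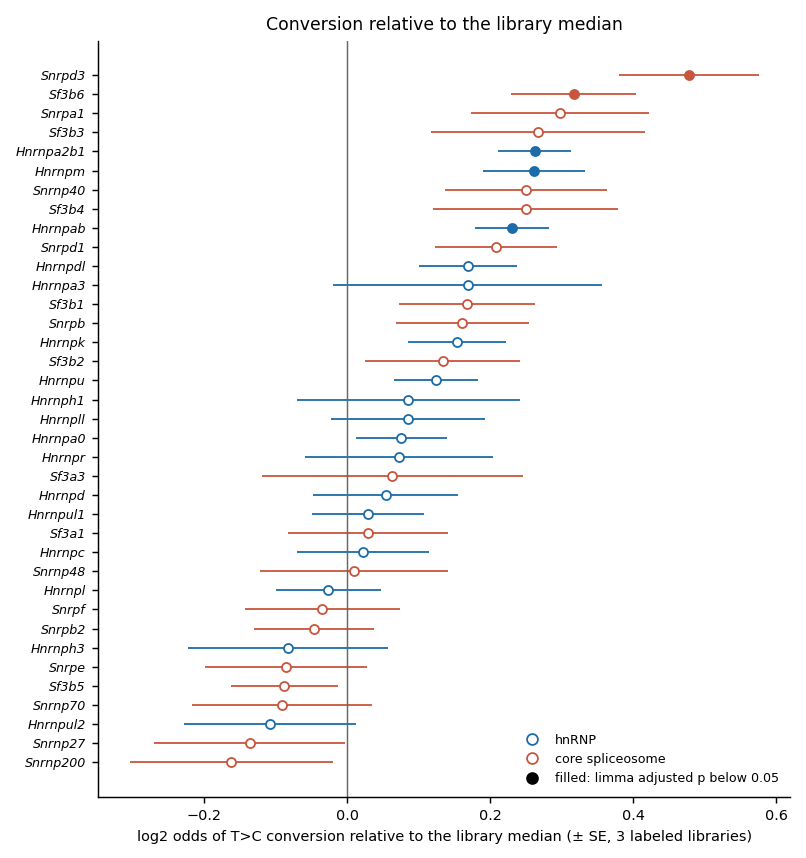
Log2 odds of T>C conversion relative to the library median (x axis, point ± SE over 3 labeled libraries) for the 37 members, hnRNP genes in blue and core spliceosome genes in red. Filled points have a limma adjusted p below 0.05 over 5555 genes: Snrpd3, Sf3b6, Hnrnpa2b1, Hnrnpm and Hnrnpab, all to the right of 0.

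Centring on the library-wide rate in place of the library median moved the median of all genes up by 0.16 on the log2 scale, and the number of members called above then rose to 15 of 37 with 0 below, against 18.6% and 8.91% of all genes. Over all genes that centring turned 152 above and 589 below into 1035 above and 495 below. Counting the share of reads with a T>C conversion in place of the rate gave 12 members above and 1 below, against 14.6% and 21.2% of all genes. The member below was Hnrnpul2, by −0.62 (adjusted p = 0.0307). On that measure limma no longer called Hnrnpab (0.12, adjusted p = 0.444). The share of reads also rises with the number of T that a read covers. Member intervals held a median of 34.1% T, against 29.0% over all genes examined. The part of T content in these counts was not tested.

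HnRNP and core genes did not separate by T>C rate. The median of the mean rates was 0.0409 over 17 hnRNP genes and 0.0416 over 20 core genes. Taken library by library, the hnRNP median minus the core median was −0.000378, 0.00217 and 0.000616 in labeled replicates 1 to 3 (mean 0.000804 ± 0.00129, SD, n = 3), a difference whose sign changed between libraries. The core genes were more spread out, with an SD over genes of 0.00509 against 0.00302 for hnRNP. Their coverage was also lower, with a median of 913 covered T positions in the thinnest labeled library against 1974. Within the core, median rates were 0.0431 for 5 Sm genes, 0.0429 for 10 U2 and SF3 genes and 0.0350 for 3 U5 and tri-snRNP genes, where Snrnp40 stood apart at 0.0455. Only Snrnp70 of the U1 genes and Snrnp48 of the minor spliceosome could be placed, at 0.0364 and 0.0385. In the unlabeled libraries the class medians were 0.00116 and 0.000300 for hnRNP and 0.000598 and 0 for core genes.

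**Figure D3:**
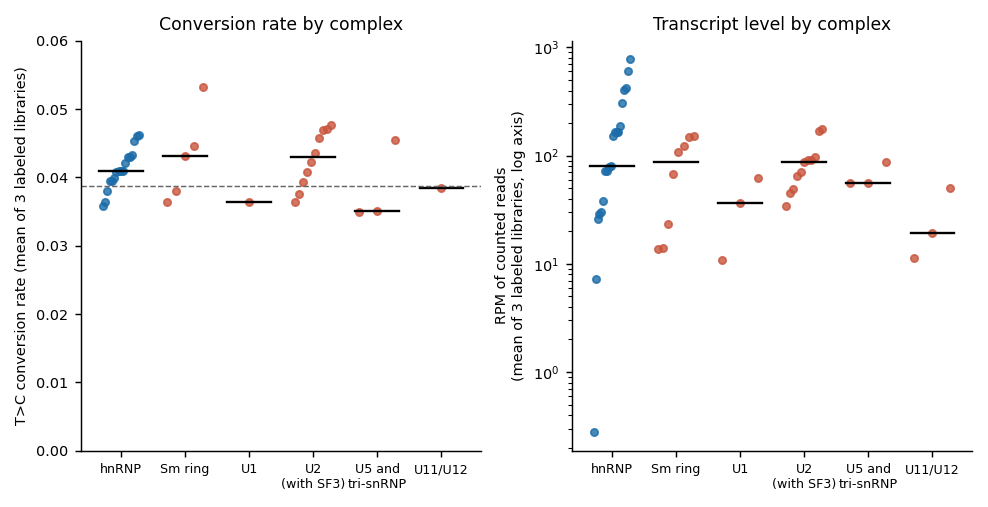
Left, mean T>C conversion rate over 3 labeled libraries (y axis, fraction) of the 37 members with enough depth, by complex, with the median of 5555 genes as a dashed line. Right, mean RPM (log axis) of 48 members; Hnrnpa1l2-ps2 had no reads and is not drawn, but counts in the hnRNP median. Points are genes and bars are medians, and the 0.0409 of hnRNP genes falls between the medians of the Sm and U5 groups.

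HnRNP levels spanned a wider range than core levels, up to 62.8 deposited CPM for Hnrnpab against 16.2 for Sf3b1. The median deposited CPM was 6.83 over 21 hnRNP genes and 5.18 over 28 core genes, a ratio of 1.32, and the ratio was 2.39 among members with a read in every labeled library. In single labeled libraries the ratio of the class medians was 1.53, 1.26 and 1.42, and in the unlabeled libraries it was 1.91 and 2.29. The difference between labeled and unlabeled ratios was not tested. The direction depended on the scale: per kilobase of interval, the hnRNP median was 73.7 RPM and the core median 180, while hnRNP intervals were longer (median 1254 against 358.5 bases). In 3′ end libraries a transcript gives reads at its end whatever its length, so the per kilobase values are given only beside the undivided ones. On the per kilobase scale Snrpd3 led at 1298, followed by Hnrnpm at 629, Hnrnpab at 594 and Sf3b5 at 560. The lowest members with reads were Hnrnph2 at 0.347, Snrnp35 at 4.16 and Hnrnpa3 at 7.54.

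Several well-known hnRNP genes had few reads, and the ends of their transcripts are repeated elsewhere in the genome. Hnrnpa1, a founding member of the family and an abundant protein in most cells, had 34.9, 19.2 and 23.7 RPM in the labeled libraries and 26.0 and 15.1 without S4U. Hnrnpf had 4.44, 9.21 and 7.90 against 9.77 and 33.1, and Hnrnph2 had 0, 0.837 and 0 against 1.63 and 0. For each interval, the stretches of 31 bases in its last 300 bases were looked up in the whole of GRCm39 on both strands, and the share with an exact copy elsewhere was counted. This share was 98.1% for Hnrnpa1, 98.5% for Hnrnpa3, 89.6% for Hnrnpf, 66.7% for Hnrnph1 and 100% for Hnrnph2, and it was 0% for Hnrnpab, Hnrnpa0 and Hnrnpu. Among core genes it was 97.8% for Snrpd2, 87.5% for Snrpc, 84.3% for Snrpg, 65.0% for Snrpe and 53.8% for Snrpa. The windows below begin the most copied stretch of Hnrnpa1, Hnrnpf, Hnrnph2, Snrpc and Snrpg, shown because these 31-base stretches have more than 1 exact place in the genome. Single stretches with more copies lay in Snrpn (319), Sf3b6 (280), Hnrnpul1 (23) and Hnrnpa1l2-ps2 (13). The copied share of these 4 intervals was 6.30%, 23.3%, 21.9% and 100%, and that of Hnrnpa2b1 was 21.1%. The highest count for Snrpd1, with a copied share of 15.2%, is not reported here. A counted copy may also lie within the same interval. Stretches as long as a whole read were not searched.

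Hnrnpa1, plus strand, chr15:103153097-103153126, 11 other copies: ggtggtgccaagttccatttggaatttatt

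Hnrnpf, plus strand, chr6:117902337-117902366, 7 other copies: aagagaagcatttctcatgttcattctagt

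Hnrnph2, plus strand, chrX:133507710-133507739, 4 other copies: ggctttgatttaaaccttaccttgtattgt

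Snrpc, plus strand, chr17:28070737-28070766, 6 other copies: gagcagaagcgctcttgatggttttgtatt

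Snrpg, plus strand, chr6:86355800-86355829, 4 other copies: caaaggcctgtttgattgtgatgtagaatt

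In all, 11 of 49 members had at least 50% of their stretches copied elsewhere, against 6.23% of the 13745 genes with a stretch to search. The median level of these 11 was 23.3 RPM, and that of the other 38 was 89.2. Per kilobase the medians were 38.5 and 161. Among all genes with a read in a labeled library, the corresponding medians were 15.0 for 855 genes and 21.6 for 12889. The deposited tables hold 0 in the field for multiply mapped reads throughout, and how such reads were handled is not given in the sources used here, so the levels of the 11 genes are uncertain and the part of copied sequence in them was not tested. Without them the ratio of the hnRNP to the core median CPM was 2.18 (15 and 23 genes, chosen after seeing the data). Their T>C rates did not stand out: the 3 that had enough depth, Hnrnpa3, Hnrnph1 and Snrpe, had a median of 0.0407, against 0.0410 for the other 34.

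**Figure D4:**
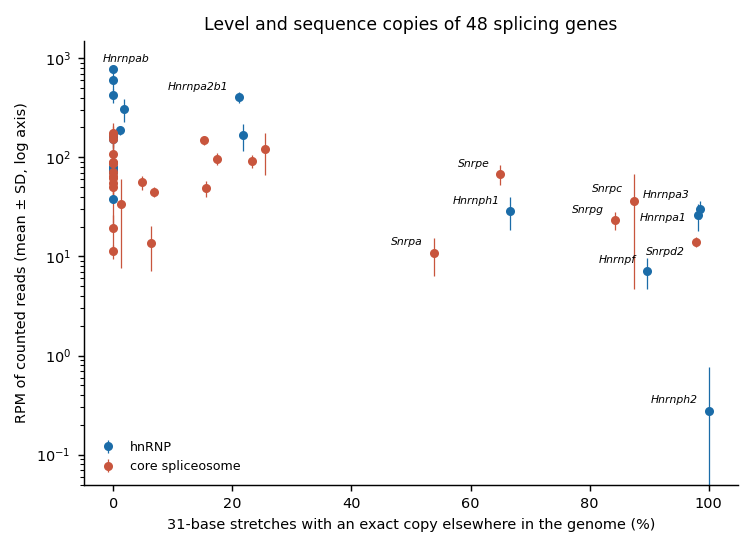
RPM (y axis, log scale, mean ± SD over 3 labeled libraries) of the 48 members with a read, against the share of 31-base stretches at the end of the interval that have an exact copy elsewhere in the genome (x axis, %). HnRNP genes are blue and core genes red; lower error bars are cut where they would reach 0. The 10 genes drawn at 50% or more lie at or below the 67.9 RPM of Snrpe.

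Paralogs were set side by side in the labeled libraries. Of 21 pairs in 7 groups, 11 had enough depth on both sides, and in 3 of these the ranges of T>C rate over the libraries did not overlap, while 35.0% of all pairs of the 5555 genes were separate in this way. Hnrnpab (0.0421 to 0.0472) was above Hnrnpd (0.0379 to 0.0414), by 0.00531 on the mean. Hnrnpdl (0.0430 to 0.0435) was also above Hnrnpd, a close relative, and the mean of Hnrnpd minus that of Hnrnpdl was −0.00336. Hnrnpu (0.0398 to 0.0438) was above Hnrnpul2 (0.0319 to 0.0389), by 0.00632. In the A family, Hnrnpa2b1 exceeded Hnrnpa0 in 3 of 3 libraries, with a mean difference of −0.00524 for Hnrnpa0 minus Hnrnpa2b1, yet the ranges overlapped. Levels differed widely in some pairs and little in others. Hnrnpab had 10.7 times the RPM of Hnrnpd, and 51.1 times per kilobase, and Snrpb had 8.97 times those of Snrpn, or 22.5 times per kilobase. Hnrnph1 had 0.752 times the RPM of Hnrnph3, or 0.979 times per kilobase. Hnrnpu had 2.54 times the RPM of Hnrnpul1 but 0.481 times per kilobase, so the order of this pair turned with the scale. Snrpn, the imprinted paralog of Snrpb best known from neurons, had 6.98, 20.1 and 13.8 RPM with S4U and 3.26 and 9.04 without, and its interval overlaps Gm38393 on the same strand.

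In the fit of labeled against unlabeled libraries, no member passed the test for a change in reads. Of the 47 members tested with edgeR's quasi-likelihood test, 0 passed an adjusted p of 0.05, as did 0% of 9807 genes. DESeq2 called 0 members and 0.194% of all genes. On simulated counts the edgeR test recovered 45.5% of changes of 2 on the log2 scale, so a missing call does not show equal levels. At an unadjusted p below 0.05 there were 2 members, with 5.97% of all genes at that level, and DESeq2 had 1. Sf3b4, an RNA-binding SF3b subunit, had a log2 fold change of 1.06 ± 0.345 (SE, adjusted p = 0.724), with 40.0, 57.7 and 49.4 RPM with S4U and 21.7 and 28.1 without. Snrpa1 had 0.78 ± 0.319 (adjusted p = 0.810), with 90.7, 70.3 and 51.4 against 48.3 and 39.2. Neither difference passed adjustment in this test. With the replicate number as a block in edgeR, both did (adjusted p of 0.00197 for Sf3b4 and 0.000272 for Snrpa1). That fit left 1 residual degree of freedom, and the numbers are not shown to pair the samples. The labeled libraries lay above the unlabeled ones without overlap in 4 of the 47 members (Sf3b4, Snrpa1, Sf3a3 and Hnrnpl) and below them in 2 (Hnrnpf and Hnrnpll), against 8.20% and 13.1% of all genes. The fold changes of the 47 members ran from −1.51 for Hnrnpf to 1.28 for Snrpn, with 29 above 0 and 18 below. Their median was 0.12, or 0.01 for hnRNP and 0.26 for core genes, against 0.02 over all genes.

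Splicing genes outside these name groups were measured in the same libraries, and their difference from the members was not tested. Of 15 hnRNP proteins with other symbols, such as the Ptbp and Pcbp genes, 9 had enough depth, with a median T>C rate of 0.0394, and limma called 0 above and 0 below the library median. Of 52 other spliceosome proteins, such as the Lsm and Prpf genes, 38 had enough depth, with a median of 0.0393, 1 called above and 0 below. All 15 and 50 of these genes that could be tested had a higher rate with S4U at an unadjusted p below 0.05. The same held for 95.1% of 11179 genes, and limma called 2.74% of 5555 genes above and 10.6% below. Their median levels were 67.3 and 41.7 RPM, and that of the 49 members was 71.5.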

How the data were processed

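SLAMseq libraries of CF were analysed, 3 labeled and 2 unlabeled, grouped by title. The authors moved the unique molecular identifiers into the read names, mapped to mm39 with SLAM-DUNK 0.4.3 and removed duplicates with umi-tools. The authors deposited counts per 3′ interval (reads, reads with T>C, covered T positions, conversions), the conversion rate as a fraction, and CPM. Repeated rows were used once. T content matched GRCm39 for 40380 of 40380 intervals on its chromosomes.

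Labeled and unlabeled rates went into a beta-binomial likelihood-ratio test with an unadjusted p of 0.05. The study's methods name a beta-binomial test for increased rates at that p, and the two-sided form was chosen here. Tested on simulated data, it called 11.4% of unchanged intervals. Reads were compared with edgeR 4.0.16 (TMM, filterByExpr), and log odds (pseudocount 0.5, centred on the library median, trend over coverage) with limma 3.58.1. On simulated conversions limma recovered 42.5% of genes whose rate was changed by 0.585 on the log2 scale. Work ran in R 4.3.3 and Python 3.11.15, with DESeq2 1.42.0 as an alternative.

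The members and lists were chosen with earlier results of these data known. Every member is accounted for, and values in every library are given for the 8 hnRNP and 8 core genes with the highest CPM and for the 5 highest and 5 lowest rates. Chi-square per degree of freedom between libraries of 1 group was 2.20 to 18.2, above sampling noise. Limits at 0 assume 3 conversions and cover counting error only. Protein sequences of the paralogs were not used here.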

Additional observations from a re-analysis of the deposited data

How the results depend on the processing

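Depth and the third labeled library limit what can be ordered, and 10 of the 47 members measured had too few covered T positions to be compared. Where each library covered at least 1000 T positions, 20 members could be tested with the beta-binomial test and all 20 were called. Benjamini-Hochberg adjustment, 1 interval per gene and limma on the log odds each called 47, and leaving out libraries gave 46 to 47. Members above the library median numbered 3 with at least 100 covered T positions (1.44% of all genes) and 5 of 20 with at least 1000 (9.85% of 2121 genes). They numbered 3 with a pseudocount of 1 (2.48%), 15 when centred on the library-wide rate (18.6%) and 12 by the share of reads (14.6%), and 0 to 4 without 1 labeled library (0.449% to 2.43%). Members below were 0 in each setting except the share of reads, with 1, while 7.41% to 21.2% of all genes were called below. The hnRNP minus core rate was −0.000623 as the difference of the medians of mean rates. It was 0.00144 with at least 1 covered T position and −0.000574 to 0.000564 without 1 library. Without intervals that overlap another gene (chosen after seeing the data) it was −0.00216. The share of reads is on a larger scale, with class medians of 0.586 for hnRNP and 0.582 for core genes. The difference there was 0.00368. The cause of these changes of sign was not tested. The hnRNP to core level ratio was 1.80 with CPM summed over intervals, 0.432 per kilobase, 2.39 among members with a read in every labeled library, 2.18 without copied genes, and 1.28 to 1.37 without 1 library. The median rate of other spliceosome proteins was 0.0428 with at least 1000 covered T positions and 0.0376 to 0.0402 without 1 library, and that of other hnRNP proteins 0.0385 to 0.0394. The library-wide difference was 0.0339 with 1 interval per gene and 0.0344 to 0.0349 without 1 library. Subtracting the unlabeled rate left the 5 members called above on the same side. Of 40 alternative values of those 5 members relative to the median, 15 lost their call and 0 changed sign.

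With the replicate number as a block, edgeR called 7 of 47 members, on 1 residual degree of freedom. Of all 9807 genes it called 528 up and 617 down, so many genes outside the members were called as well. The members were Hnrnpc, Sf3b4, Sf3b5, Snrpa1 and Snrpf up, 5 in all, and Hnrnpf and Hnrnpll down. The adjusted p in this fit was 0.00197 for Sf3b4 and 0.000272 for Snrpa1. Same-numbered libraries deviated together (correlations 0.784 and 0.638), but so did labeled replicate 3 and unlabeled replicate 2 (0.482), and with 2 unlabeled libraries their deviations mirror each other, so the numbers are not shown to pair the samples. Without the block, leaving out 1 library at a time called 0 members, as did the fit of all libraries.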
